A study of Mus musculus with 4 samples.

Results

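The solute carriers are the largest group of membrane transporter genes, and the ones described here were read in NK (natural killer) cells and in T cells that had been sorted out of tumours. Members were chosen by their level: symbols that start with Slc and a digit and whose mean over the 4 libraries was at least 10. The values are labelled only as a normalized signal. They are called normalized CPM here, that is, CPM on a library size scaled before deposit. This unit was inferred from the values and is not stated in the sources used here. Of 380 symbols that start with Slc and a digit, 221 had at least 1 read and 78 reached the mean of 10. Of the 78, 75 encode carriers by their symbol. The other 3 only carry the name of one, namely Slc9a3r1 (a scaffold protein), Slc4a1ap (an adaptor) and Slc7a6os (a gene on the opposite strand of Slc7a6). The level that chose the members is a description and is not tested. Of the 78, 66 had a mean of at least 10 in both cell types. Another 3 reached the threshold through the NK libraries alone (Slc25a53, Slc35b2 and Slc39a4), and 9 through the T libraries alone (Slc2a9, Slc10a3, Slc15a4, Slc17a6, Slc25a25, Slc26a2, Slc35b3, Slc41a1 and Slc43a2). For these 12 the threshold itself favours a gap between the cell types.

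Solute carriers move sugars, amino acids, monocarboxylates such as lactate, nucleosides, ions and metals across the plasma membrane, and metabolites across the membranes of organelles. Activated lymphocytes are known to take up more glucose and neutral amino acids, and glycolytic cells export lactate with protons through monocarboxylate carriers. In tumours, lymphocytes meet low glucose, lactate and extracellular adenosine, and equilibrative nucleoside carriers bring adenosine into cells.

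Both groups came from BALB/C mice with subcutaneous CT26 tumours (a syngeneic mouse colon carcinoma line), and no other treatment is named. The NK group held 2 libraries of intratumoral NK cells, and the T group held 2 libraries of intratumoral T cells. Each library is a pool, of 4 mice for replicate 1 and of 6 mice for replicate 2 in both groups. Neither the mice's age, nor the sort gate, nor any split of the T cells by coreceptor stands in the sources used here. Reads assigned to genes came to 2228226 and 2665928 in NK and 2067728 and 2893240 in T, so that 1 read was worth 0.354 to 0.551 normalized CPM. A member at a level of 10 therefore rests on few reads per library. Ribosomal RNA took 36.9% and 38.8% of reads in NK pools 1 and 2, and 52.4% and 42.7% in T pools 1 and 2. The defining markers followed the labels. The 7 NK markers summed to 2050 and 1736 in NK against 133 and 156 in T, and the 8 T markers to 68.3 and 52.5 in NK against 2296 and 1912 in T. The 12 macrophage markers, of which 1 (Cd14) passed the test, summed to 1070 and 240 in the NK libraries and to 269 and 29.4 in the T libraries. In bulk samples like these, fewer cells of a type and less RNA per cell cannot be told apart.

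None of the 78 members passed the main test between NK and T cells, which did not use the pool as a block. Members called numbered 0 higher in NK and 0 higher in T by limma across all 12128 genes tested (Benjamini-Hochberg adjusted p under 0.05), where 2.33% of all genes tested and 3.7% of those with a mean of at least 10 were called. By edgeR on recovered reads the count was also 0, against 2.73% of all genes. At an unadjusted p under 0.05, limma gave 8 members, 3 higher in NK and 5 higher in T, where 12.8% of all genes tested reached it. Both values of one cell type lay above both of the other for 32 members (20 with NK higher and 12 with T higher), against 43.4% of all genes tested (22.1% and 21.3%) and 44.7% of those with a mean of at least 10. Some of these reached the threshold through the higher cell type alone, so the threshold itself favours their gap and the size of their fold changes. They are Slc25a53 and Slc35b2 with NK higher, and Slc2a9, Slc10a3, Slc15a4, Slc17a6, Slc25a25, Slc41a1 and Slc43a2 with T higher. The member median log2 fold change (NK minus T, computed from log2(value + 1)) was 0.08, and over all genes tested it was 0.02. The extremes were 1.55 for Slc25a5 and -1.58 for Slc35d1 and Slc2a9, whereas all genes tested ran from 8.64 to -6.89. Of the 78 fold changes, 65 were smaller than 2-fold in either direction. The 13 that were larger make 16.7% of the members, beside 24.6% of all genes tested and 16.1% of those with a mean of at least 10. The size of a difference that could have been missed is given by the 95% intervals, which are not adjusted for the number of genes. For 59 members the interval stayed within a 4-fold difference in either direction, and for 19 it reached beyond. With 2 libraries a group, an exact permutation test of a single gene cannot give a two-sided p below 0.333.

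**Figure D1:**
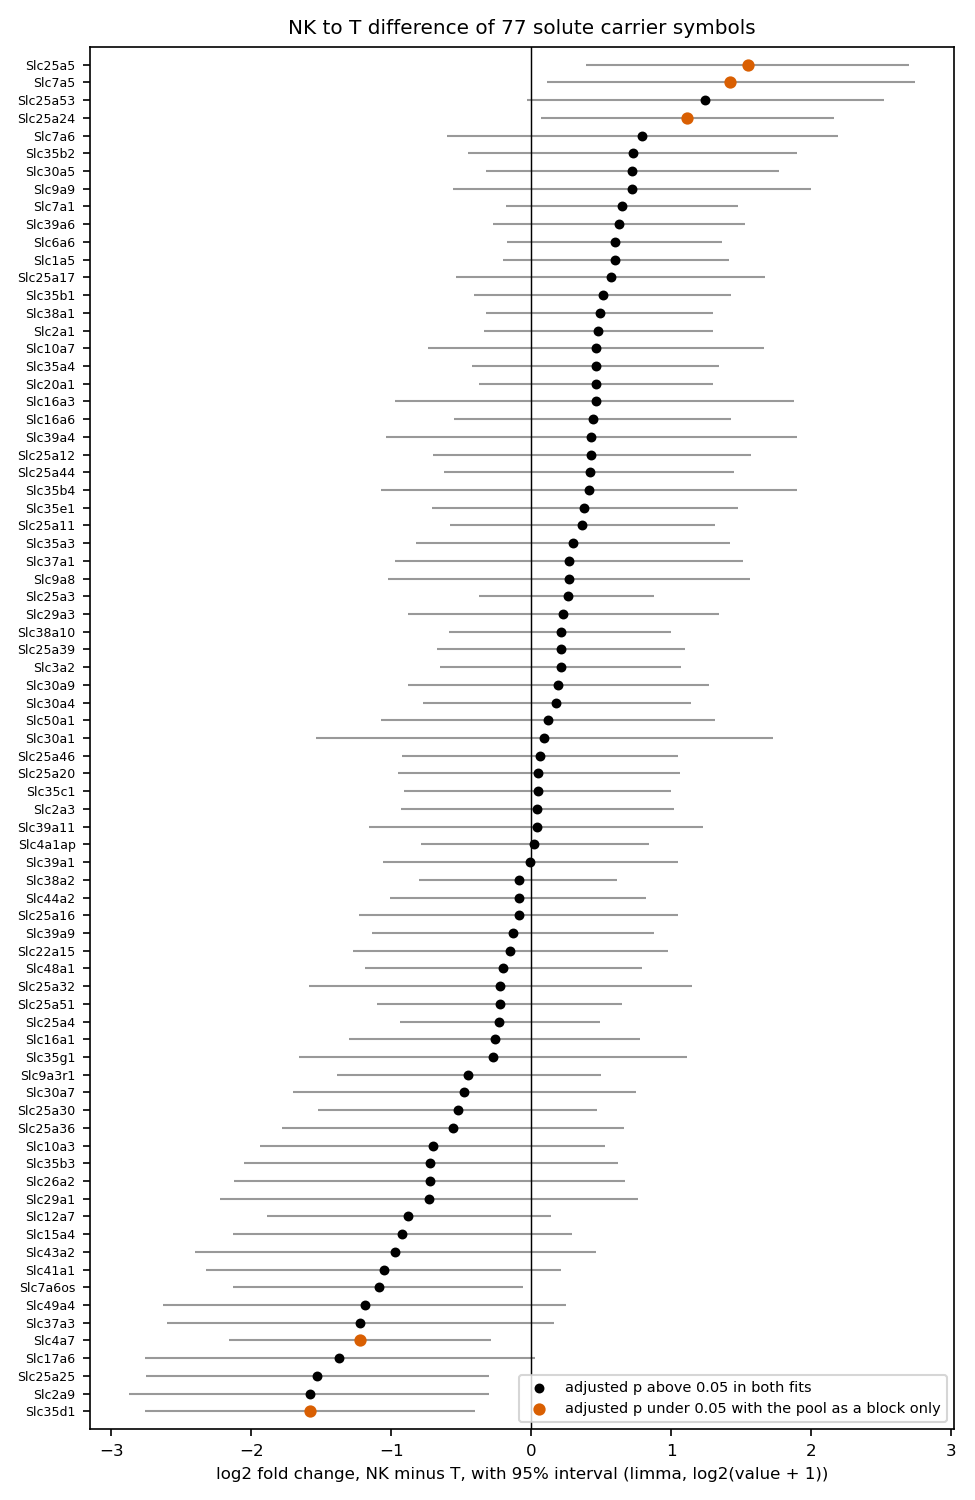
Log2 fold change, NK minus T, of 77 of the 78 members (points) with its 95% interval (bars), from limma on log2(value + 1). Intervals are wide, and the 5 orange points have a limma adjusted p under 0.05 with the pool of mice as a block, and not without it.

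The replicate number ties each library to a pool of mice, and with the pool as a block in the fit 5 members passed the limma test. Slc25a5 (adjusted p = 7.04e-06), Slc7a5 (0.00418) and Slc25a24 (0.0212) were then higher in NK cells, and Slc35d1 (0.00866) and Slc4a7 (0.012) higher in T cells. That fit called 8.24% of all genes tested (4.26% higher in NK and 3.97% higher in T) and 11.9% of those with a mean of at least 10, and the 5 members are 5 of 78. By edgeR with the block the same 5 passed, where 7.35% of all genes were called. Without the block, edgeR called Slc25a24 when T replicate 1 was left out (3.88% of all genes), and Slc7a5 and Slc25a5 when T replicate 2 was (4.11%). The limma fit with the block has 1 residual degree of freedom, so its p-values rest almost wholly on spread shared across genes. For all 5 the gap differed in size between pools: NK minus T on the log2 scale was 2.71 in pool 1 and 0.38 in pool 2 for Slc25a5, 2.22 and 0.63 for Slc7a5, 0.61 and 1.62 for Slc25a24, -2.49 and -0.68 for Slc35d1, and -1.92 and -0.53 for Slc4a7.

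Summed over the members, the NK libraries held 3664 and 3893 normalized CPM and the T libraries 3167 and 3501. Mitochondrial carriers made up 35.6% of this sum over all libraries, and amino acid carriers 29.1%. The 18 mitochondrial members summed to 1408 ± 71.7 in NK cells and 1122 ± 86 in T cells (SD, n = 2 each). The 10 amino acid members summed to 1054 and 1221 in NK against 837 and 1032 in T. Glucose carriers (3 members) summed to 144 and 137 in NK against 137 and 87.5 in T, and monocarboxylate carriers (3 members) to 101 and 131 against 79.8 and 123. In the amino acid, glucose and monocarboxylate classes the ranges of the cell types overlapped or nearly met, with T pool 1 lowest for amino acid and monocarboxylate carriers and T pool 2 lowest for glucose carriers. Sums of normalized CPM weigh long genes more, so the shares of the classes describe reads, not transcripts.

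**Figure D2:**
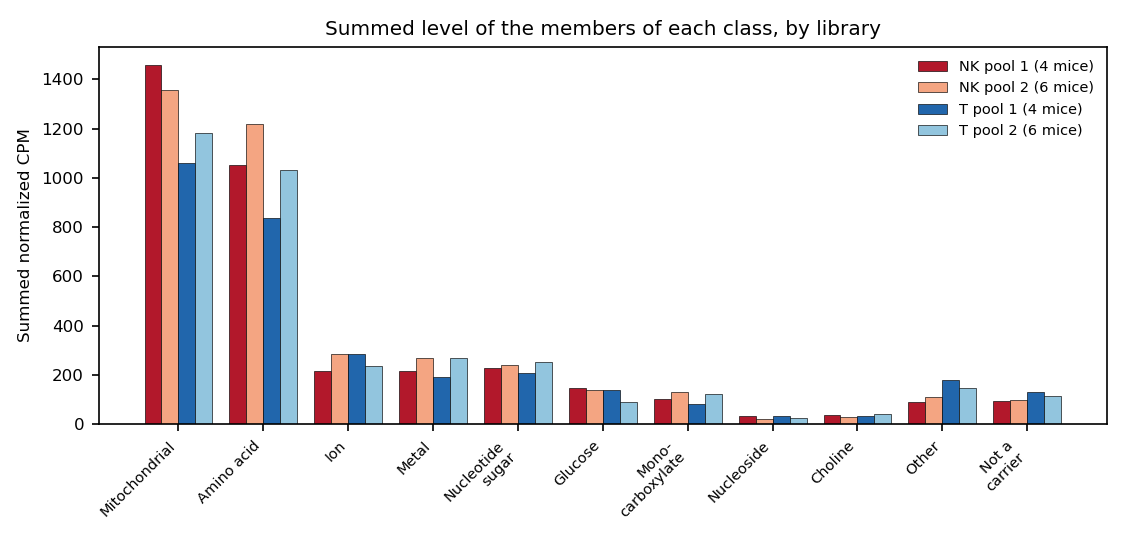
Summed normalized CPM of the members of each class in each of the 4 libraries (bars from 0). Mitochondrial carriers and amino acid carriers hold most of the sum of reads in every library. The nucleotide sugar class is the Slc35 family, and the choline class is the single member Slc44a2.

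Compared per kilobase of exon (normalized CPM divided by the length of all annotated exons), Slc25a5 and Slc25a3 had the highest means over all libraries. Slc25a5, an ADP/ATP carrier of the inner mitochondrial membrane, stood at 170 per kilobase in NK and 69.9 in T. Slc25a3, the mitochondrial phosphate carrier, stood at 101 in NK and 85.2 in T. The next were Slc3a2 (65.9 in NK and 56.1 in T), Slc25a4 (47.3 and 55.5), Slc38a2 (33.8 and 35.9) and Slc2a1 (27.9 and 20.5). This order is of means over all libraries, and single libraries departed from it. In T pool 1, Slc25a5 stood at 29.4, below Slc25a3 (78.7), Slc25a4 (60.6), Slc3a2 (42) and Slc38a2 (31). In NK pool 1, Slc25a4 (50.5) also exceeded Slc3a2 (46.4). Other departures included Slc20a1, which exceeded Slc2a1 per kilobase in pool 2, at 30.3 against 28.9 in NK and 18.4 against 15.3 in T.

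None of the 3 glucose carriers passed the test between the cell types. Slc2a1, which encodes the glucose transporter GLUT1 (ENSMUSG00000028645.11, chromosome 4, 119108711 to 119137983, plus strand, GRCm38), had 94 and 101 normalized CPM in NK pools 1 and 2, against 90.3 and 53.5 in T pools 1 and 2; exons of Gm12868 overlap it on the opposite strand. Both NK values lay above both T values, but NK pool 1 and T pool 1 were close, and the low value was T pool 2. The log2 fold change was 0.48 (95% interval -0.34 to 1.30, limma adjusted p = 0.648), so a difference above 2.47-fold towards NK lies outside the interval. Slc2a3, the high-affinity glucose transporter GLUT3, had 31.7 and 25.2 in NK against 33.6 and 22.3 in T, and the groups overlapped. Its log2 fold change was 0.04 (95% interval -0.93 to 1.02, limma adjusted p = 0.978). Per kilobase, Slc2a1 exceeded Slc2a3 in both cell types, with 27.9 against 3.93 in NK and 20.5 against 3.86 in T. Slc50a1, a sugar carrier of the SWEET family, had 17.9 and 10.3 in NK against 13.2 and 11.7 in T.

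The lactate and other monocarboxylate carriers that reached the threshold overlapped between the cell types. Slc16a1, which encodes MCT1 (chromosome 3, 104638668 to 104658462, plus strand), had 18.3 and 26.9 in NK against 20.9 and 34.4 in T. Slc16a3, which encodes MCT4, the exporter typical of glycolytic cells, had 21.2 and 13.1 in NK against 22.6 and 6.02 in T. In both cell types the Slc16a1 level was higher in pool 2 than in pool 1, and the Slc16a3 level higher in pool 1 than in pool 2. The log2 fold changes were -0.26 for Slc16a1 (95% interval -1.30 to 0.78) and 0.46 for Slc16a3 (-0.97 to 1.88), with limma adjusted p = 0.868 and 0.822. Without T replicate 2 the value for Slc16a3 was -0.41. Slc16a6, another member of the family, had 61.8 and 90.8 in NK against 36.3 and 82.9 in T; exons of Amz2 and Arsg overlap it on the opposite strand.

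Amino acid carriers held the largest share of members whose NK values both lay above both T values, at 5 of 10, with 1 the other way. Of all genes with a mean of at least 10, 23.6% were apart with NK higher and 21.1% with T higher. The 5 were Slc7a1, Slc6a6, Slc38a10, Slc1a5 and Slc7a5, and none of them passed the test without the pool as a block. With the block, only Slc7a5 among them passed by limma (adjusted p = 0.00418). The class median log2 fold change was 0.54, and 8 of 10 fold changes were positive.

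Slc7a5, the light chain of the leucine and large neutral amino acid transporter LAT1 (ENSMUSG00000040010.10, chromosome 8, 121881150 to 121907694, minus strand), had the largest fold change of the class. It had 54.9 and 75.2 in NK against 11 and 48.2 in T. The T pool 1 value, resting on 20 reads, was the low one, and T pool 2 lay just below NK pool 1. The log2 fold change was 1.42 (95% interval 0.11 to 2.74, limma adjusted p = 0.34, and 0.00418 with the pool as a block). Within pools 1 and 2 the differences were 2.22 and 0.63. T pool 1 was the library with the largest share of ribosomal RNA, 52.4%, and its part in this result was not tested. T pool 1 was the lowest library for 24 of the 78 members (30.8%, beside 30.7% of all genes with a mean of at least 10) and the highest for 20 (25.6%, beside 24.1%). Slc3a2, the CD98 heavy chain that pairs with Slc7a5 and other light chains (chromosome 19, 8706882 to 8723369, minus strand), had 164 and 301 in NK against 148 and 248 in T. It followed the pool more than the cell type, with pool 2 above pool 1 in both, and its log2 fold change was 0.21 (95% interval -0.65 to 1.07, limma adjusted p = 0.87).

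Carriers of glutamine and small neutral amino acids differed in level. Per kilobase, Slc38a2 ranked 5 of 78 members, Slc1a5 13 and Slc38a1 22. Slc38a2, a sodium-coupled carrier of small neutral amino acids, had 249 and 349 in NK against 274 and 361 in T. Its interval was among the narrower ones, at -0.80 to 0.61 around a log2 fold change of -0.09 (limma adjusted p = 0.934). Slc38a1, a relative that carries glutamine, had 208 and 147 in NK against 161 and 95.7 in T, lower in pool 2 of both cell types. Slc1a5, the glutamine carrier ASCT2, had 62.6 and 68.4 in NK against 45.2 and 40.4 in T. These groups did not overlap, and each was tight, yet the difference did not pass (log2 fold change 0.60, 95% interval -0.20 to 1.41, limma adjusted p = 0.55).

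Among the remaining amino acid carriers, most had both NK values above both T values. Slc7a1, which takes up arginine and lysine, had 123 and 107 in NK against 55.1 and 96.7 in T (log2 fold change 0.65, limma adjusted p = 0.531). Slc6a6, the taurine transporter, had 111 and 84 in NK against 63.3 and 63.4 in T (0.60, adjusted p = 0.534). Slc38a10 had 55.7 and 68.4 in NK against 52.9 and 53.9 in T. Slc7a6, another light chain that pairs with Slc3a2, had 20.3 and 13.8 in NK against 4.96 and 16.7 in T, again lowest in T pool 1. Slc43a2, a facilitative carrier of large neutral amino acids, was the exception in direction, with 5.69 and 6.38 in NK against 21.5 and 7.44 in T. Its high value was T pool 1 alone.

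**Figure D3:**
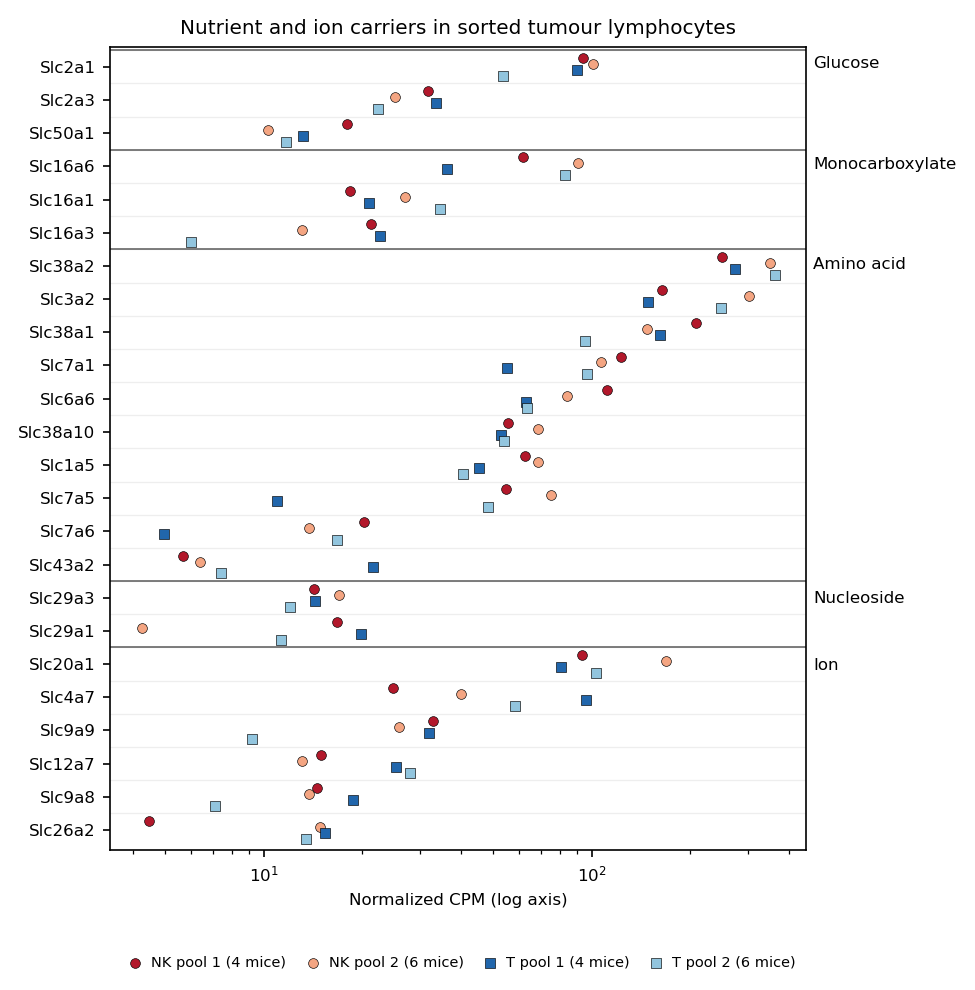
Normalized CPM (log axis) of 24 members in the glucose, monocarboxylate, amino acid, nucleoside and ion classes, with 1 point per library. NK (circles) and T (squares) points interleave for most genes; Slc7a5 is lowest in T pool 1 at 11, and Slc4a7 and Slc12a7 have both T points above both NK points.

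Nucleoside carriers were low. Slc29a1, the equilibrative carrier ENT1 that moves adenosine across the plasma membrane (chromosome 17, 45585200 to 45599606, minus strand), had 16.7 and 4.25 in NK against 19.8 and 11.3 in T. Pool 1 exceeded pool 2 in both cell types, and the groups overlapped. The log2 fold change was -0.73 with a wide interval of -2.22 to 0.76 (limma adjusted p = 0.705), and without NK replicate 2 it was 0.14. Exons of Gm17080 overlap it on the opposite strand. Slc29a3, an equilibrative carrier of lysosomes, had 14.2 and 17 in NK against 14.3 and 12 in T. Slc28a2, a sodium-coupled nucleoside carrier, lay just outside the threshold, with 9.36 and 2.84 in NK and 9.91 and 17.7 in T. Slc36a4 also lay just outside, with a mean of 9.72 over the 4 libraries. Just inside were Slc25a53 with a mean of 10.0, Slc10a3 with 10.1 and Slc43a2 with 10.2.

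Among the 7 ion carriers, both T values lay above both NK values for 2, and for the other 5 the groups overlapped; 21.1% of all genes with a mean of at least 10 were apart with T higher. Slc4a7, an electroneutral sodium bicarbonate cotransporter (ENSMUSG00000021733.10, chromosome 14, 14702279 to 14799940, plus strand), had 24.8 and 40.1 in NK against 96.4 and 58.5 in T. The log2 fold change was -1.22 (95% interval -2.16 to -0.29, limma adjusted p = 0.222, and 0.012 with the pool as a block). Within pools 1 and 2 it was -1.92 and -0.53. Slc12a7, a potassium chloride cotransporter, had 15 and 13.1 in NK against 25.3 and 28 in T (log2 fold change -0.88, 95% interval -1.89 to 0.14, limma adjusted p = 0.481). Slc20a1, a sodium phosphate cotransporter, was the most abundant ion member by normalized CPM, at 93.6 and 169 in NK against 80.4 and 103 in T (adjusted p = 0.669 by limma). Slc9a9, an endosomal sodium proton exchanger, had 32.9 and 25.9 in NK against 31.9 and 9.21 in T. Without T replicate 2 its log2 fold change of 0.72 became -0.12.

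Metal carriers, 12 members, went both ways around a median log2 fold change of 0.06. Slc39a6, a zinc importer, had 45.1 and 51.8 in NK against 25.3 and 37.6 in T (log2 fold change 0.63, 95% interval -0.27 to 1.53, limma adjusted p = 0.566). Slc30a4, a zinc carrier of intracellular vesicles, had 26.4 and 31.6 in NK against 22 and 29.1 in T. Slc41a1, a magnesium carrier, had 7.32 and 7.8 in NK against 11.6 and 24.1 in T.

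Slc30a1, the zinc exporter of the plasma membrane, varied by pool more than by cell type. It had 13.4 and 24.5 in NK against 6.61 and 41.5 in T, lowest in T pool 1 and highest in T pool 2. The difference between T pools, -2.48 on the log2 scale for pool 1 minus pool 2, was wider than the NK to T log2 fold change of 0.09 (95% interval -1.54 to 1.73). The metallothioneins Mt1 and Mt2, zinc-binding proteins that share the zinc-sensing factor MTF-1 with Slc30a1 as a known regulator, were looked at beside it after its values were seen. Mt2 had 15 and 30.1 in NK against 6.61 and 45.4 in T, the same order of libraries as Slc30a1. Mt1 had 42.3 and 96.1 in NK against 21.5 and 69.5 in T, also with pool 2 above pool 1 in both cell types, but highest in NK pool 2. Of all genes with a mean of at least 10, 30.7% were lowest in T pool 1 and 28.3% highest in T pool 2. The share in the full order of Slc30a1 was not counted, and any part of zinc or MTF-1 was not tested. The promoter of Slc30a1 is shown because of the order it shared with Mt2. It is the 250 bases before the gene's RefSeq start, at chr1:191906531-191906780 on the plus strand of GRCm38.p6, printed 5′ to 3′. Capitals mark the match to the core of the metal response element, searched as TGCACNC or TGCGCNC on both strands, with matches that overlap each other counted once. This window holds 1 match, and 21.4% of the 32851 RefSeq promoter windows of that length hold at least 1.
Slc30a1: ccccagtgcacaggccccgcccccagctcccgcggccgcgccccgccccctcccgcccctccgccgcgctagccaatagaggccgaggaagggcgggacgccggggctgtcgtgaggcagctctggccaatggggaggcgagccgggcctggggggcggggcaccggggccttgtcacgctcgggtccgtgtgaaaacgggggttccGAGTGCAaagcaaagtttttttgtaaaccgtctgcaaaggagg

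Mitochondrial carriers included Slc25a3, the member with the highest normalized CPM, and Slc25a5, that with the largest positive fold change. Slc25a5 (ENSMUSG00000016319.3, chromosome X, 36795651 to 36798807, plus strand) had 323 and 237 in NK against 48.5 and 182 in T. The groups did not overlap, and T pool 1, with 88 reads, stood far below the other libraries. The log2 fold change was 1.55 (95% interval 0.39 to 2.70, limma adjusted p = 0.206, and 7.04e-06 with the pool as a block). It was made of 2.71 in pool 1 and 0.38 in pool 2. Slc25a5 has close relatives and processed copies in the genome, so how its reads were assigned is uncertain. Its relative Slc25a4 had 119 and 104 in NK against 143 and 119 in T, with a log2 fold change of -0.23. Slc25a3 had 569 and 558 in NK against 437 and 510 in T, and its interval of -0.37 to 0.88 around 0.26 was narrow (limma adjusted p = 0.766).

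Slc25a24, a calcium-regulated carrier of ATP-magnesium and phosphate (ENSMUSG00000040322.10, chromosome 3, 109123149 to 109168457, plus strand), had 95.6 and 73.7 in NK against 62.2 and 23.4 in T. The log2 fold change was 1.11 (95% interval 0.07 to 2.16, limma adjusted p = 0.345, and 0.0212 with the pool as a block). Slc25a25, a paralogue of the same function, went the other way, with 4.88 and 9.57 in NK against 24.2 and 19.5 in T (log2 fold change -1.53, 95% interval -2.75 to -0.30, limma adjusted p = 0.251). Slc25a25 was among the members that reached the threshold through T cells alone. Slc25a53 had 17.1 and 12.1 in NK against 6.06 and 4.96 in T. Some mitochondrial members, picked after their values were seen, had closer values in the 4 libraries than others of the class. Slc25a36, by contrast, had 15 and 49.6 in NK against 33.6 and 50 in T, and Slc25a12 had 39.5 and 19.5 against 27 and 15.2. Slc25a20, which carries acylcarnitines for fatty acid oxidation, had 19.9 and 20.2 in NK against 19.8 and 18.8 in T. Slc25a39, a mitochondrial glutathione carrier, had 34.6 and 34.7 in NK against 29.7 and 29.8 in T. Slc25a51, a mitochondrial NAD carrier, had 31.7 and 44.3 in NK against 44.1 and 43.9 in T.

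The nucleotide sugar class was set by family and held the 10 members of the Slc35 family. That family is known for carriers of nucleotide sugars, which feed glycosylation in the Golgi and endoplasmic reticulum. Not every member is such a carrier, so the counts describe the family. Of the 10, 3 had both NK values above both T values and 1, Slc35d1, the other way, beside 23.6% and 21.1% of all genes with a mean of at least 10. Slc35d1, a carrier of UDP-glucuronic acid and UDP-N-acetylgalactosamine (ENSMUSG00000028521.17, chromosome 4, 103170649 to 103215164, minus strand), had 7.73 and 20.2 in NK against 47.9 and 33 in T. Both T values lay above both NK values (log2 fold change -1.58, 95% interval -2.76 to -0.40, limma adjusted p = 0.205, and 0.00866 with the pool as a block). Slc35b1, the ATP/ADP exchanger of the endoplasmic reticulum, had 55.3 and 45.4 in NK against 27 and 45 in T. Slc35a4, whose exons overlap Apbb3 on the opposite strand, had 38.2 and 41.1 in NK against 28.6 and 28.3 in T (log2 fold change 0.46, limma adjusted p = 0.683). The GDP-fucose carrier Slc35c1 had 25.2 and 26.6 in NK against 28.1 and 22.3 in T.

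In the mixed class of 9 further carriers, 7 fold changes were negative and 4 members had both T values above both NK values, while 1 was the other way, beside 21.1% and 23.6% of all genes with a mean of at least 10. Slc2a9, a urate carrier of the glucose transporter family, had 5.29 and 4.61 in NK against 21.5 and 13.1 in T (log2 fold change -1.58, 95% interval -2.87 to -0.30, limma adjusted p = 0.255). Slc17a6, known as a vesicular glutamate transporter of neurons, had 7.32 and 3.55 in NK against 10.5 and 20.9 in T. Slc15a4, an endolysosomal carrier of histidine and peptides, had 8.95 and 9.22 in NK against 24.8 and 13.1 in T. Slc10a3 had 8.14 and 6.74 in NK against 13.8 and 11.7 in T. These 4 are the members of the class with both T values higher, and all of them reached the threshold through T cells alone. Slc44a2, a choline carrier and the sole lipid class member, had 36.2 and 28 in NK against 30.3 and 38.3 in T.

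Within each pool the NK minus T difference had the same sign for 51 of the 78 members and opposite signs for 27. The same sign in both pools was seen for 65.4% of members and for 63.9% of all genes with a mean of at least 10. The median absolute log2 difference was 0.42 between the NK pools, 0.55 between the T pools and, between single libraries of the same pool, 0.57 for NK minus T in pool 1 and 0.42 in pool 2. For all genes with a mean of at least 10 these medians were 0.38, 0.51, 0.56 and 0.43.

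**Figure D4:**
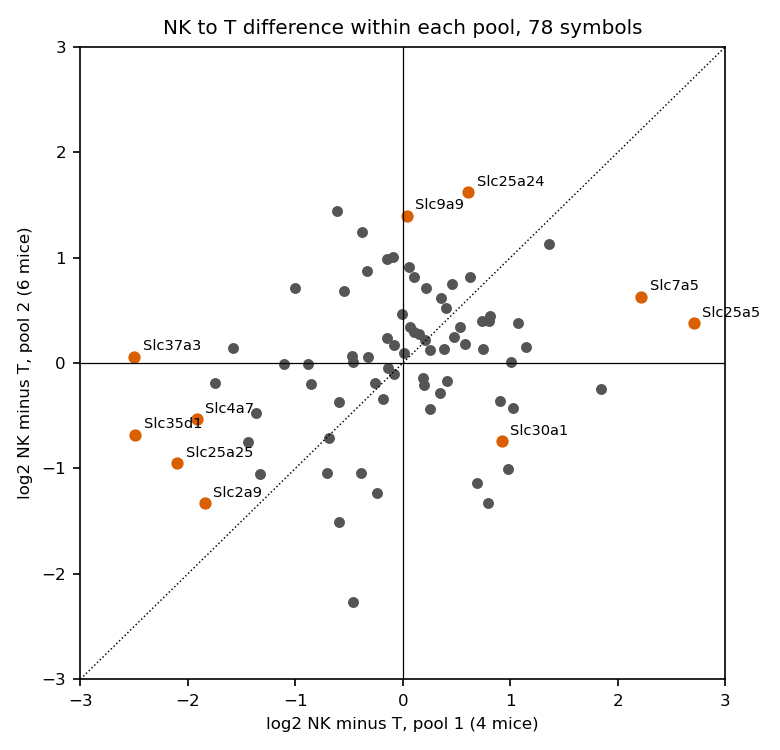
Log2 difference, NK minus T, of value + 1 in pool 1 (x axis) and in pool 2 (y axis), with 1 point per member and a dotted line of equality. Slc7a5 and Slc25a5 lie far to the right, with large differences in pool 1 only; Slc25a24 is above 0 in both pools, and Slc30a1 changes sign between pools. Labelled members (orange) are those called with the pool as a block and 5 others chosen after their values were seen.

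The order of the libraries by summed macrophage markers was NK pool 1, T pool 1, NK pool 2 and T pool 2, with sums of 1070, 269, 240 and 29.4. Values of 4 members fell in this same order, namely Slc38a1, Slc9a9, Slc25a11 and Slc25a12, which is 5.13% of the members beside 5.17% of all genes with a mean of at least 10. The 5 neutrophil markers summed to 23.2 and 23.4 in NK and to 94.7 and 12.8 in T, highest in T pool 1. That library was also the highest for 20 of the 78 members (25.6%, beside 24.1% of all genes with a mean of at least 10). Slc43a2, Slc2a9 and Slc15a4 were among them, named after their values were seen. So were Slc4a7 (96.4) and Slc35d1 (47.9), which passed the limma test higher in T cells with the pool as a block. The part of either marker list in these values was not tested. Slc11a1, a metal carrier of macrophage phagosomes, was below the threshold, at 8.95 and 1.42 in NK and 3.3 and 0 in T.

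Some genes that work with the carriers passed the test between the cell types. Of 52 listed genes, which cover carrier chaperones, enzymes acting on the transported substrates, ion pumps, nutrient sensors and transporters with other symbols, 51 were tested. Calls by limma numbered 2 higher in NK (of 1.24% over all genes) and 3 higher in T (of 1.09%), with a list median log2 fold change of 0.06. All 5 calls were lost when limma's spread was fitted without a trend on expression, with adjusted p = 0.0585 for Car2, 0.0587 for Adk, 0.127 for Slco3a1, 0.177 for Emb and 0.254 for Atp1b1. Embigin (Emb), an ancillary protein of monocarboxylate carriers, fell to 67.1 and 103 in NK, against 298 and 343 in T (log2 fold change -1.93, SE 0.33, limma adjusted p = 0.0129). Basigin (Bsg), the chaperone of Slc16a1 and Slc16a3, had 43.1 and 57.8 in NK against 31.4 and 32.6 in T and did not pass (0.63, adjusted p = 0.559). Exons of Emb overlap Gm17509 on the opposite strand.

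The enzymes that use adenosine were also read. Adenosine kinase (Adk), which phosphorylates adenosine to AMP, was lower in NK cells, at 4.07 and 3.9 against 40.7 and 54.6 in T (log2 fold change -3.27, SE 0.50, limma adjusted p = 0.00698). Adenosine deaminase (Ada), named after its values were seen, had 36.2 and 21.6 in NK against 3.85 and 6.02 in T. It did not pass by limma (2.31, adjusted p = 0.0651), but passed by edgeR (adjusted p = 0.045) and by limma with the pool as a block (adjusted p = 0.00123).

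Among pumps and ion partners, Atp1b1, a beta chain of the sodium potassium pump, was higher in NK cells, at 292 and 183 against 51.2 and 92.8 in T cells. Its log2 fold change was 1.73 (SE 0.39) with a limma adjusted p = 0.0498, just past the threshold, and the adjusted p was 0.0951 with a pseudocount of 0.25 and 0.0667 on plain CPM, with no scaling of the library size. Exons of Nme7 overlap it on the opposite strand. Car2, a carbonic anhydrase that makes bicarbonate from carbon dioxide, had 475 and 646 in NK against 5.51 and 21.6 in T (log2 fold change 5.52, SE 0.52, limma adjusted p = 0.000456). Slco3a1, an organic anion transporter outside the Slc-and-digit symbols, was lower in NK cells, at 8.14 and 9.57 against 102 and 42.9 in T cells (log2 fold change -2.78, SE 0.51, limma adjusted p = 0.0177).

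The partners with the highest levels did not pass. Lactate dehydrogenase (Ldha), which makes the lactate that Slc16a3 exports, had 778 and 435 in NK against 656 and 313 in T, with pool 1 above pool 2 in both cell types as for Slc16a3. Ferritin heavy chain (Fth1) had 518 and 497 in NK against 466 and 590 in T. The ion transport kinase Wnk1 had 382 and 311 in NK against 601 and 422 in T (log2 fold change -0.55, limma adjusted p = 0.527). Atf4, a transcription factor of the amino acid response, had 408 and 506 in NK against 312 and 411 in T (0.34, adjusted p = 0.691).

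**Figure D5:**
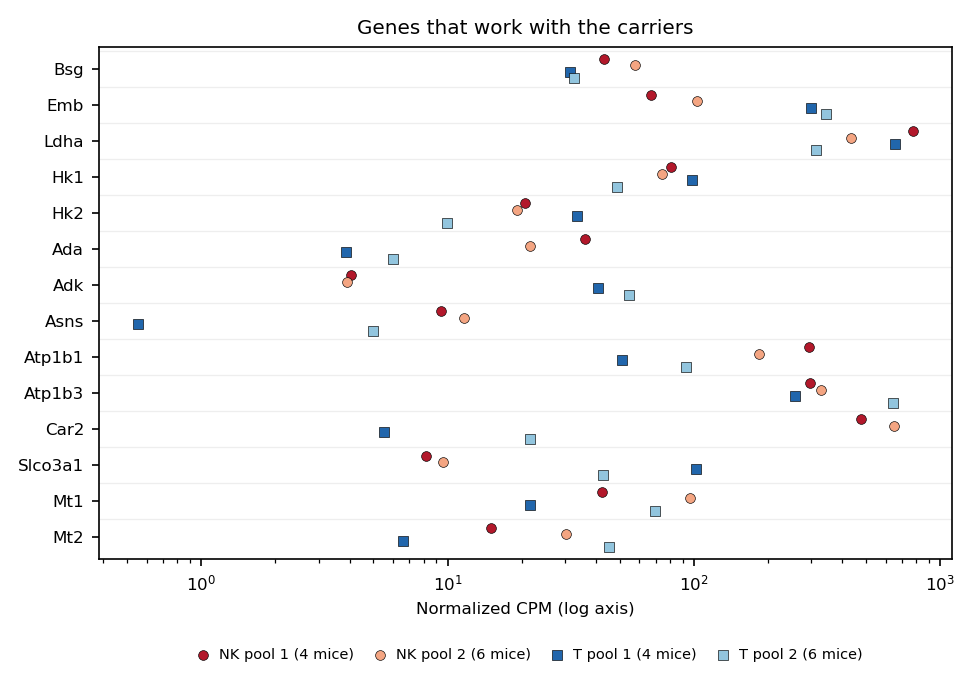
Normalized CPM (log axis) of 14 genes that work with the carriers, with 1 point per library; Bsg, Hk1, Hk2, Ada, Asns, Atp1b3, Mt1 and Mt2 were chosen after their values were seen. NK (circles) and T (squares) do not overlap for Emb, Adk, Car2, Slco3a1, Ada, Atp1b1, Asns and Bsg, and they overlap for the others. Over all genes tested, 43.4% do not overlap.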

How the data were processed

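RNA sequencing of sorted tumour NK cells and T cells (2 pools of mice each) was used. Per the labels' protocols, immune cells were enriched by Percoll and sorted, and libraries followed standard Illumina methods. STAR 2.7.0f, Bowtie2 2.3.4.1, FastQC, limma and the build GRCm38.p6 appear in the submitters' processing notes with no role. The sources used here do not say how reads were counted, with which strand setting, or how values were scaled. The deposited table holds a normalized signal for 55450 genes, per the file headers 1 column per library. Every non-zero value was a whole multiple of its library's smallest (tolerance 0.001 reads, 100% of values), so whole reads were recovered; edgeR on them called 331 genes. Rows with no symbol (0.0198% to 0.0214% of reads) were kept under their gene ID, the highest-mean row was kept per symbol, and 27 symbols turned into dates were restored.

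Genes with a mean of at least 1 were tested as log2(value + 1), which understates changes of low genes, with limma 3.58.1 in R 4.3.3 (trended eBayes, 2 residual degrees of freedom), NK minus T, Benjamini-Hochberg adjusted at 0.05. Alternatives included edgeR 4.0.16 and DESeq2 1.42.0 on recovered reads. No source says the pools were separate experiments, so p-values measure the spread between these libraries. Across genes, pool 1 minus pool 2 in NK cells correlated with the same in T cells at 0.161; the pairing itself comes from the series' design text. Members, classes and lists were chosen with earlier results of these data known. Named were the 2 or 4 most abundant members per class, 10 well-known carriers, symbols next to the threshold, and listed partners past the test or among the 4 most abundant; other genes given were chosen after their values were seen. Exons of 25 members overlap another annotated gene (GENCODE M21), 22 on the opposite strand and 5 on the same, so reads may be shared. Promoter sequence is from RefSeq (GRCm38.p6), which matched 61 of 78 members. A trial of the test on simulated counts was run, and its outcome is not reported here. Those counts held no difference between pools, so the trial cannot vouch for the test on these libraries. Values of some genes are not reported here.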

Additional observations from a re-analysis of the deposited data

How the results depend on the processing

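No solute carrier member passed under any limma, edgeR or DESeq2 setting that kept all 4 libraries without the pool block, and 5 passed with the replicate block by limma and the same 5 by edgeR. Without 1 library, limma called 0 members and 0 genes of all (752 to 1759 had an unadjusted p under 0.05). By contrast edgeR, added after seeing the data, called 0 to 2 members (Slc25a24 without T replicate 1, where 3.88% of all genes were called; Slc7a5 and Slc25a5 without T replicate 2, 4.11%) and 323, 428, 471 or 499 genes. Over all genes, limma called 282, the replicate block 999, a pseudocount of 0.25 163, no trend 38, DESeq2 441 and edgeR with the replicate block 892. Of the partners, 5 were called, 10 with the replicate block by limma and by edgeR, 0 with no trend, 0 by limma without any 1 library and 4 to 8 by edgeR. The median log2 fold change of the members was 0.08, with 0.29 on plain CPM (where all genes shifted to 0.21), 0.13 by edgeR, 0.11 by DESeq2 and 0.00 to 0.12 without 1 library (by edgeR 0.04 without either NK library, 0.01 without T replicate 1 and 0.08 without T replicate 2). On plain CPM Slc38a2 was 0.13 and Slc44a2 0.12, a reversed sign. Only 35 genes, called partners included, were followed singly through the settings, and without 1 library the signs of 11 of them also reversed. Their log2 fold changes by limma, with the reversed values by edgeR in parentheses, were Slc16a1 -0.61 to 0.08 (0.09), Slc16a3 -0.41 to 1.33 (-0.12 and -0.43), Slc16a6 -0.14 to 1.02 (-0.12), Slc29a1 -1.61 to 0.14 (0.10), Slc2a3 -0.24 to 0.33 (-0.16 and -0.27), Slc30a4 -0.01 to 0.38 (-0.00), Slc38a2 -0.34 to 0.15 (0.12 and 0.10), Slc3a2 -0.22 to 0.65 (-0.28 and -0.09), Slc44a2 -0.27 to 0.09 (0.07 and 0.05), Slc50a1 -0.25 to 0.49 (-0.29) and Slc9a9 -0.12 to 1.56 (-0.15). The cause was not tested. With 2 libraries a group and 2067728 to 2893240 reads each, members near the threshold have wide intervals.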

Other observations

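Below the mean of 10, 91 further Slc symbols were tested, and 0 passed by limma or edgeR (12 at an unadjusted p under 0.05 by limma). With the pool as a block 3 passed the limma test, which then called 8.24% of all genes, all 3 higher in NK cells. By edgeR with the block Slc35f5 stayed (adjusted p = 0.0349), while Slc24a3 (0.0609) and Slc41a2 (0.0505) did not pass. Slc24a3, a potassium-dependent sodium calcium exchanger, had 11.4 and 8.15 normalized CPM in NK against 1.1 and 0.709 in T (adjusted p = 0.0321 by limma with the block). Slc41a2, a magnesium carrier, had 5.29 and 11.3 in NK against 0 and 0.709 in T (0.0259). Slc35f5 had 12.2 and 13.5 in NK against 0.551 and 3.19 in T (0.0195). Slc43a3, a purine nucleobase carrier, had 12.2 and 8.51 in NK against 1.65 and 2.83 in T. Slc7a11, the cystine and glutamate exchanger, had 5.69 and 7.09 in NK against 1.65 and 0.709 in T (limma adjusted p = 0.327 without the block). Slc38a6 lay the other way, with 1.63 and 3.19 in NK against 8.26 and 13.8 in T. These genes were chosen after their values were seen, and at such levels a value rests on few reads.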
